A study of Mus musculus with 11 samples.

Results

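The genes described here are the homeostatic chemokines that organize lymphoid tissue and their receptors. They are Ccl19, Ccl21a and Cxcl13, the receptor gene Ccr7, and with them Cxcr5, which encodes the receptor for CXCL13, and Cxcl12, a stromal chemokine of bone marrow, lymph node and skin. They were chosen by name, and all 6 were among the 754 genes measured in skin from 11 mice. The largest differences belonged to Cxcl13, which was 5.73-fold higher in allo-WT skin than in syngeneic skin and 14.6-fold lower in allo-MCd skin than in allo-WT skin. Ccl19 and Ccl21a signal through the same receptor, and Ccl21a was 2.05-fold lower in allo-WT skin than in syngeneic skin while the Ccl19 values of those groups overlapped. The call of Ccl21a was lost when any 1 of 4 mice was left out. Within a mouse, the ratio of Ccl19 to Ccl21a was higher in all 3 allo-WT mice than in any syngeneic mouse, by 1.68 on the log2 scale (exact permutation p = 0.1, the smallest that 3 mice against 3 allow, adjusted p = 0.136). Of 15 ratio comparisons, 9 were without overlap, those with Cxcr5 included, and none passed the threshold after adjustment.

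The study asked how mast cells bear on chronic graft-vs.-host disease of the skin, using 3 syngeneic, 3 allo-WT and 5 allo-MCd recipients. Every recipient was a female young adult that received 850 cGy of radiation, then bone marrow cells and splenocytes. Skin from the nape of the neck was taken after week 7. Syngeneic and allo-WT recipients were C57BL/6j mice. The allo-MCd recipients were B6.Cg-KitW-sh/HNihrJaeBsmGlliJ mice, which lack mast cells because of W-sh, an allele of Kit, which encodes the stem cell factor receptor. That allele acts in other cells that use Kit as well, so the strain is not a model of mast cell loss alone. By the methods, both allogeneic groups received LP/J cells and the syngeneic mice C57BL/6J cells, but the labels name LP/J cells in every mouse. The labels do not say which mice shared a transplant experiment.

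CCL19 and CCL21 are made by stromal cells of the T-cell zone, and CCL21 also by lymphatic endothelium. Both bind CCR7, which guides naive T-cells and maturing dendritic cells into lymph vessels and lymph nodes. CXCL13 is made by follicular stroma, and also by some activated T-cells and macrophages, and draws B-cells and follicular helper T-cells that carry CXCR5. CXCL12 acts through CXCR4 and keeps leukocytes near stroma. In inflamed tissues such as skin, these genes can be switched on together with lymphotoxin and adhesion molecules where lymphocytes gather into lymphoid-like aggregates.

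The stretch before the start of each ligand gene is shown because it differs between the 2 ligands of CCR7 and between Cxcl13 and Cxcl12. Sequences are from the RefSeq promoter table of build GRCm38.p6, which held 4 of the 6 members. Each line gives the 100 bases before the start site, 5′ to 3′ on the gene's own strand, with matches to TATAAA or ATAAAT in capitals. The stretches lie at chr4:42756366-42756465 on the minus strand for Ccl19, chr4:42773992-42774091 on the minus strand for Ccl21a, chr5:95956839-95956938 on the plus strand for Cxcl13 and chr6:117168435-117168534 on the plus strand for Cxcl12.
Ccl19: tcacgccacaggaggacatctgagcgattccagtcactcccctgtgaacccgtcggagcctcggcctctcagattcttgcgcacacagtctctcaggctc
Ccl21a: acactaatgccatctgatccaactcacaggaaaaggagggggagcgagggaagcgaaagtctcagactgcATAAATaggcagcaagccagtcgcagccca
Cxcl13: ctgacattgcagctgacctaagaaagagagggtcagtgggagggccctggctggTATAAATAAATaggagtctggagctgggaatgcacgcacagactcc
Cxcl12: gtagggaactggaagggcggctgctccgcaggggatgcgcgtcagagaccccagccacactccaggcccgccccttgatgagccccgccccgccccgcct

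Both strands were searched, and the letters were chosen with the sequences in view. TATAAA was found in Cxcl13, at positions -46 to -41 from the start site, and in 5.57% of 32817 such stretches of the table. ATAAAT was found once in Ccl21a, at -30 to -25, and at overlapping positions in the same run of Cxcl13, and in 4.70% of all stretches. Neither set of letters was in the stretch of Ccl19 or of Cxcl12. The NF-kB consensus was in none of these 4 stretches and in 493 of the 32817. These are matches of letters, and no binding was measured. The RefSeq gene table lists 5 other protein-coding genes under a Ccl21 name or synonym, and 1 other coding gene and 3 pseudogenes for Ccl19. The probe sequences were not used here, so the Ccl21a and Ccl19 values may include near-identical copies.

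The NanoString panel counts RNA molecules with color-coded probes, and the values, normalized by the authors, are given as deposited. Each mouse had a recovered total of 831632 to 1460260 counts. The lowest total was that of allo-WT mouse 1, whose brightest positive control read 3975 counts where all other mice read 17615 to 33547. Background ranged from 14.3 to 37.5, set in each mouse at 2 SD over its mean negative control. Groups were compared in limma on log2(value + 1) over 697 genes, and an adjusted p of 0.05 or less counted as a call. The deposited scale matters here, since the median gene differed by -0.71 on the log2 scale for allo-MCd minus allo-WT mice and by -0.59 for allo-MCd minus syngeneic mice. The main results are therefore also given under median scaling, in which every mouse was brought to the same median gene and the median differences were 0.11 and -0.02. For allo-WT minus syngeneic mice, the median difference was 0.22 as deposited and -0.03 under median scaling. With 3 mice against 3, an exact permutation test cannot go below 0.1, and with 3 against 5 it cannot go below 0.0179. In whole skin, fewer cells of a type and less RNA per cell cannot be told apart.

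Ccl19, a CCR7 ligand of T-cell zone stroma and mature dendritic cells, was lowest in allo-MCd skin. Its values were 1517, 640 and 1076 in the syngeneic mice and 1693, 1330 and 1634 in the allo-WT mice. In the allo-MCd mice they were 217, 544, 414, 311 and 658. All 5 allo-MCd mice lay below all allo-WT mice, and 1 of them, at 658, lay above the lowest syngeneic mouse. Means were 1078 ± 438 (SD, n = 3) in the syngeneic group, 1553 ± 195 (SD, n = 3) in the allo-WT group and 429 ± 177 (SD, n = 5) in the allo-MCd group. Ccl19 was thus 3.62-fold lower in allo-MCd skin than in allo-WT skin, a log2 difference of -1.95 ± 0.36 (SE) with an adjusted p of 0.000539. Under median scaling the difference was -1.12 with an adjusted p of 0.00547. Against syngeneic skin, Ccl19 was lower in allo-MCd skin too, with a difference of -1.35 ± 0.36 (SE) and an adjusted p of 0.0111. That call was lost under median scaling, where the difference was -0.77 and the adjusted p 0.0685, and without mouse 1 of the syngeneic group, where the adjusted p was 0.0653. The allo-WT and syngeneic groups, neighbors in the order of levels, differed by 0.60 (95% interval -0.26 to 1.47, adjusted p = 0.226), and by 0.35 under median scaling.

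Ccl21a, a gene for the CCR7 ligand CCL21, was highest in syngeneic skin. The syngeneic mice measured 14581, 8192 and 9612, and the allo-WT mice 4824, 7684 and 3301. The allo-MCd mice measured 2695, 2239, 3869, 3057 and 5810. Every syngeneic mouse was above every allogeneic mouse, and the allogeneic groups overlapped. Group means were 10795 ± 3355 (SD, n = 3), 5270 ± 2225 (SD, n = 3) and 3534 ± 1405 (SD, n = 5), in the order syngeneic, allo-WT, allo-MCd. Ccl21a was 2.05-fold lower in allo-WT skin than in syngeneic skin, a log2 difference of -1.08 ± 0.38 (SE) with an adjusted p of 0.0392. Under median scaling this difference was -1.33 with an adjusted p of 0.00801. On the deposited scale the call was lost without mouse 1 or 3 of the syngeneic group (-0.84 and -1.14) and without mouse 1 or 3 of the allo-WT group (-1.06 and -0.78), with adjusted p-values between 0.0722 and 0.134. Against syngeneic skin, allo-MCd skin was 3.05-fold lower, with a difference of -1.65 ± 0.34 (SE) and an adjusted p of 0.00338, and -1.07 with an adjusted p of 0.0253 under median scaling. Between the allogeneic groups the difference was -0.57 (95% interval -1.32 to 0.17, adjusted p = 0.164) as deposited and 0.26 (95% interval -0.41 to 0.94) under median scaling, so its sign depends on the scale.

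Ccr7, the receptor for both ligands, was measured at low values close to background. Syngeneic mice gave 62.9, 27.1 and 49.6, and allo-WT mice gave 45.6, 62.1 and 103. Allo-MCd mice gave 15.2, 33.4, 27.9, 29.5 and 33.4. All 11 values were above the background of their own mouse, on between 18 and 81 recovered counts, and as deposited no allo-MCd value reached the allo-WT range. The low end of that range, mouse 1, rested on 18 recovered counts, where the allo-MCd mice had 20 to 37. Under median scaling that mouse stood at 30.7 and the allo-MCd mice at 23.7 to 45.8, so the groups overlapped. Ccr7 was 2.53-fold lower in allo-MCd skin than in allo-WT skin, with a log2 difference of -1.28 ± 0.38 (SE) and an adjusted p of 0.0124. This call was lost under median scaling (-0.46, adjusted p = 0.268), and without mouse 3 of the allo-WT group, which had the highest value (-0.96, adjusted p = 0.0624). The other comparisons did not pass the test. The difference was 0.59 (95% interval -0.34 to 1.52) for allo-WT minus syngeneic mice and -0.69 (95% interval -1.52 to 0.15) for allo-MCd minus syngeneic mice, and 0.34 and -0.13 under median scaling.

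**Figure D1:**
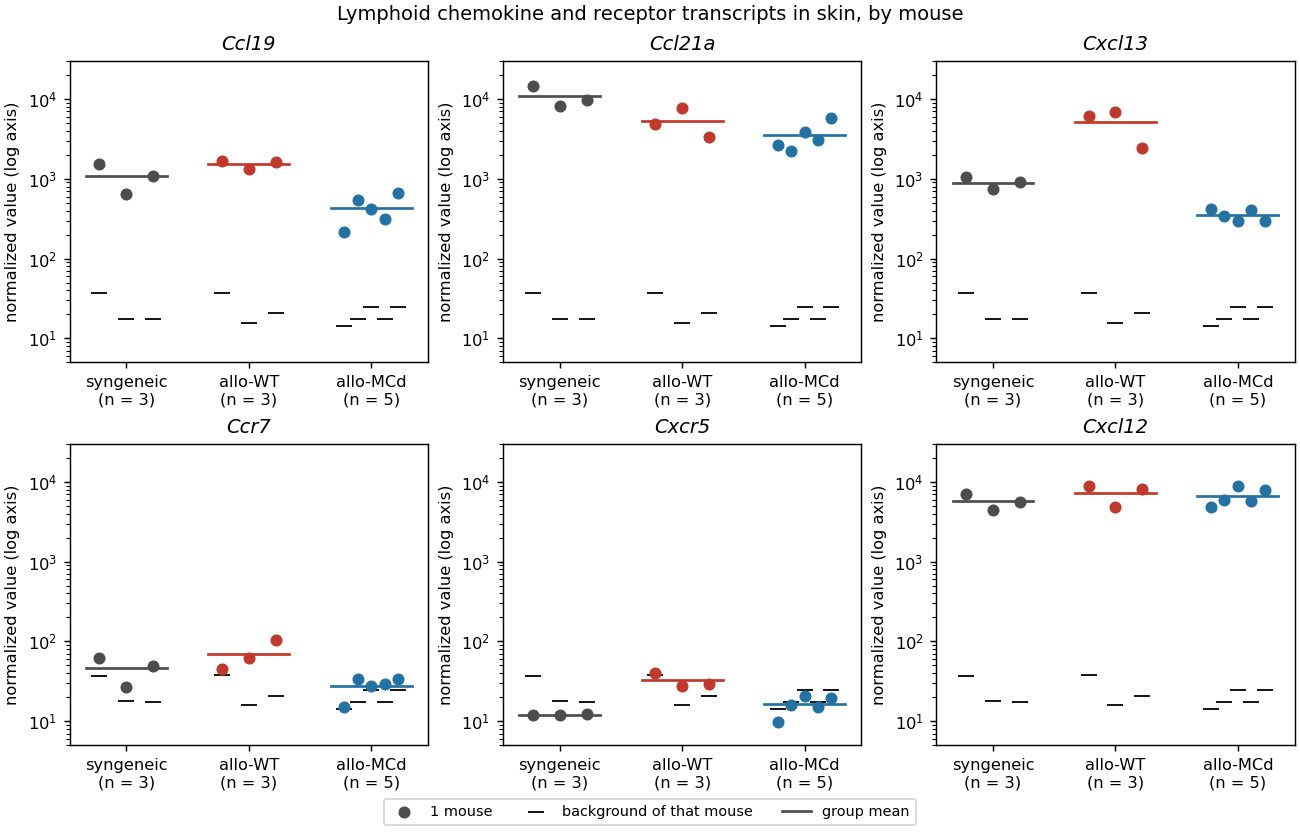
Normalized values of the 6 genes (log axis) in syngeneic, allo-WT and allo-MCd mice, with 1 point per mouse, a line at each group mean and a short black bar at the background of that mouse. The 3 allo-WT mice stand at 2467 to 6862 for Cxcl13, above the syngeneic mice at 745 to 1044 and the allo-MCd mice at 298 to 418, while Cxcr5 lies near or below background in most mice.

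Cxcl13, the B-cell follicle chemokine, separated all 3 groups. Syngeneic mice measured 1044, 745 and 907, allo-WT mice 6115, 6862 and 2467, and allo-MCd mice 418, 340, 300, 405 and 298. The lowest allo-WT mouse was above the highest syngeneic mouse, and every syngeneic mouse was above every allo-MCd mouse. Means were 899 ± 150 (SD, n = 3), 5148 ± 2352 (SD, n = 3) and 352 ± 56.8 (SD, n = 5), in the order syngeneic, allo-WT, allo-MCd. Cxcl13 rose by 2.40 ± 0.33 (SE) on the log2 scale in allo-WT over syngeneic skin, with an adjusted p of 0.000336, and by 2.14 with an adjusted p of 0.000994 under median scaling. In allo-MCd skin it was lower than in allo-WT skin, with a log2 difference of -3.75 ± 0.30 (SE), an adjusted p of 1.24e-06, and the exact permutation p of 0.0179 was the smallest this design allows. Median scaling gave -2.91 with an adjusted p of 3.3e-05. Cxcl13 ranked 32 of 697 genes by the size of the fall in that comparison, and 46 by the size of the rise from syngeneic to allo-WT skin. Without mouse 1 of the allo-WT group, the differences were 2.21 and -3.56, and both remained called. Allo-MCd skin was also below syngeneic skin, by 2.55-fold (-1.35 ± 0.30 SE, adjusted p = 0.00443), but under median scaling the difference was -0.77 with an adjusted p of 0.104.

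Cxcr5, the receptor for CXCL13 on B-cells and follicular helper T-cells, was above background only in the allo-WT mice. Their values were 40.6, 27.5 and 29.4, on 16 to 23 recovered counts. Mouse 1 of that group had 16 counts, close to its background of 14.8 counts. The syngeneic mice measured 12.0, 11.9 and 12.1, and the allo-MCd mice 9.87, 15.8, 20.7, 15.2 and 19.6, all 8 below the background of their own mouse. The gene therefore entered the test through the allo-WT group and 1 allo-MCd mouse, and values below background have no order. The fit called Cxcr5 higher in allo-WT skin than in syngeneic skin on both scales, and lower in allo-MCd skin than in allo-WT skin on the deposited scale but not under median scaling. These calls set the allo-WT values against background readings, so no size or p is read from them. Recovered counts of allo-MCd mice, 13 to 20, overlapped those of the allo-WT group. Their backgrounds were 18.6 to 24.1 counts, against 13.2 to 16.2 for the allo-WT group. Under median scaling the Cxcr5 means were 20.8 for allo-MCd and 23.6 for allo-WT skin, with overlap. The separation of these groups thus rests on the background cutoff of each mouse and on the deposited scale. Sizes of Cxcr5 differences that are drawn, or given below for other settings, show only how the fit moved. No difference is read between allo-MCd and syngeneic mice.

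Cxcl12, a CXCR4 ligand of fibroblasts and other stroma, overlapped across all 3 groups. It was measured at 7141, 4452 and 5674 in syngeneic, 9030, 4794 and 8089 in allo-WT, and 4882, 5937, 8986, 5812 and 7916 in allo-MCd mice. The highest and the lowest allo-WT mouse enclosed most of the other mice. Means were 5756 ± 1346 (SD, n = 3), 7304 ± 2224 (SD, n = 3) and 6707 ± 1687 (SD, n = 5). The difference between allo-MCd and allo-WT skin was -0.11 (95% interval -0.70 to 0.48, adjusted p = 0.742) as deposited, and 0.73 ± 0.21 (SE, adjusted p = 0.00941) relative to the median gene. Allo-MCd minus syngeneic gave 0.21 (95% interval -0.38 to 0.80) as deposited and 0.79 with an adjusted p of 0.0173 under median scaling. Allo-WT minus syngeneic gave 0.32 (95% interval -0.34 to 0.98), and 0.06 under median scaling.

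In the 3 comparisons, the members moved as follows. From syngeneic to allo-WT skin, 2 of 6 members were called higher, Cxcl13 and Cxcr5, where 28.1% of all genes tested were. Cxcr5 passed the filter through the group in which it was high, so its call cannot be read against that share. In the same comparison 1 member was called lower, Ccl21a, where 14.9% were. In allo-MCd against allo-WT skin, 4 of 6 were called lower, Cxcl13, Ccl19, Ccr7 and Cxcr5, where 50.4% of all genes were, and 0 were called higher, where 11.3% were. Without Cxcr5, whose allo-MCd values were all below background, 3 of the 5 other members were called lower. In allo-MCd against syngeneic skin, 3 of 6 were called lower, Ccl21a, Cxcl13 and Ccl19, against 37.0% of all genes, and 0 higher, against 4.73%. Under median scaling the counts were 2 higher and 1 lower (24.2% and 27.4% of all genes), 1 higher and 2 lower (35.7% and 30.4%), and 2 higher and 1 lower (13.8% and 13.8%), in the same order. The 2 called higher in the last comparison include Cxcr5, whose values in both of those groups were below background and have no order. In allo-MCd against allo-WT skin, the counts over the 5 members other than Cxcr5, 3 lower as deposited, and 1 higher and 2 lower under median scaling, lay near the shares of all genes. Over the same 5 members the median difference, that of Ccr7, was -1.28 in that comparison, against -0.71 over all genes, and it was 0.59 against 0.22 from syngeneic to allo-WT skin. Under median scaling these medians, again those of Ccr7, were -0.46 against 0.11 and 0.34 against -0.03. The comparisons share mice, so they are not independent of each other.

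**Figure D2:**
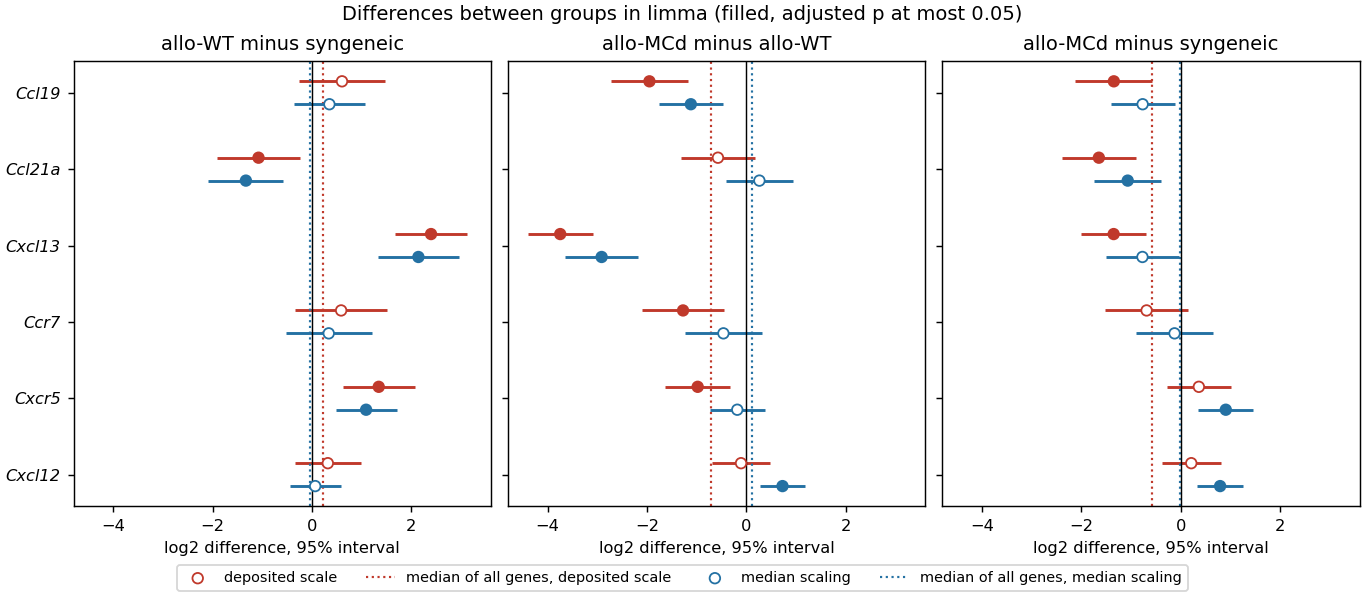
Log2 differences of the 6 genes in the 3 comparisons, with 95% intervals from limma, on the deposited scale and under median scaling, filled where the adjusted p was at most 0.05. Dotted lines mark the median of all 697 genes, which was -0.71 for allo-MCd minus allo-WT mice as deposited and 0.11 under median scaling. Ccl21a and Cxcl12 change sign between the scales in that comparison, and Cxcl13 and Ccl19 do not. Cxcr5 is drawn as fitted, with its syngeneic and allo-MCd values below background.

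Ratios of ligand to receptor, or of ligand to ligand, within 1 mouse lose the scaling between mice except through the added 1, which weighs most on the low values of Ccr7 and Cxcr5. There were 5 ratios and 15 comparisons, and the smallest p after adjustment over them was 0.0893, so none passed the threshold after adjustment. Ratios are given on the log2 scale, and only their differences between groups are compared, because probes of different genes need not count alike.

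The ratio of Ccl19 to Ccl21a, the ligands that share CCR7, was -3.26, -3.67 and -3.16 in syngeneic mice. It was -1.51, -2.53 and -1.01 in allo-WT mice, and -3.63, -2.04, -3.22, -3.29 and -3.14 in allo-MCd mice. All 3 allo-WT mice were above all syngeneic mice, by 1.68 on average (exact permutation p = 0.1, the smallest possible). Allo-MCd mice were lower than allo-WT mice by 1.38 on average, with overlap from mouse 2 of the allo-MCd group (exact permutation p = 0.0357, adjusted p = 0.0893), and they differed from syngeneic mice by 0.30 (exact permutation p = 0.571). The ratio of Ccl19 to Ccr7 lay between 4.41 and 4.57 in syngeneic and between 3.35 and 4.26 in allo-MCd mice, without overlap (difference -0.66, exact permutation p = 0.0357, adjusted p = 0.0893). In allo-WT mice it was spread from 3.97 to 5.18. The ratio of Ccl21a to Ccr7 was 7.57 to 8.19 in syngeneic mice, above every allo-WT mouse (4.98 to 6.93) and every allo-MCd mouse (6.03 to 7.40). These differences were -1.66 (exact permutation p = 0.1) and -0.96 (exact permutation p = 0.0357).

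The ratio of Cxcl13 to Cxcr5 was 6.33, 5.85 and 6.11 in syngeneic, 7.20, 7.91 and 6.34 in allo-WT, and 5.27, 4.35, 3.79, 4.65 and 3.86 in allo-MCd mice. Since Cxcr5 was below background in all syngeneic and allo-MCd mice, the ratios there take a background reading as the receptor's value, and no difference between groups is read from them. The ratio of Cxcl12 to Cxcr4, a receptor of most leukocytes, averaged 5.12 ± 0.56 (SD, n = 3) in the syngeneic group, 4.04 ± 0.56 (SD, n = 3) in the allo-WT group and 4.69 ± 0.18 (SD, n = 5) in the allo-MCd group. It was lower in every allo-WT mouse than in any other mouse, by 1.08 against syngeneic (exact permutation p = 0.1) and by 0.65 against allo-MCd mice (exact permutation p = 0.0179, adjusted p = 0.0893). Without mouse 2 of the allo-WT group, the latter difference was 0.33.

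**Figure D3:**
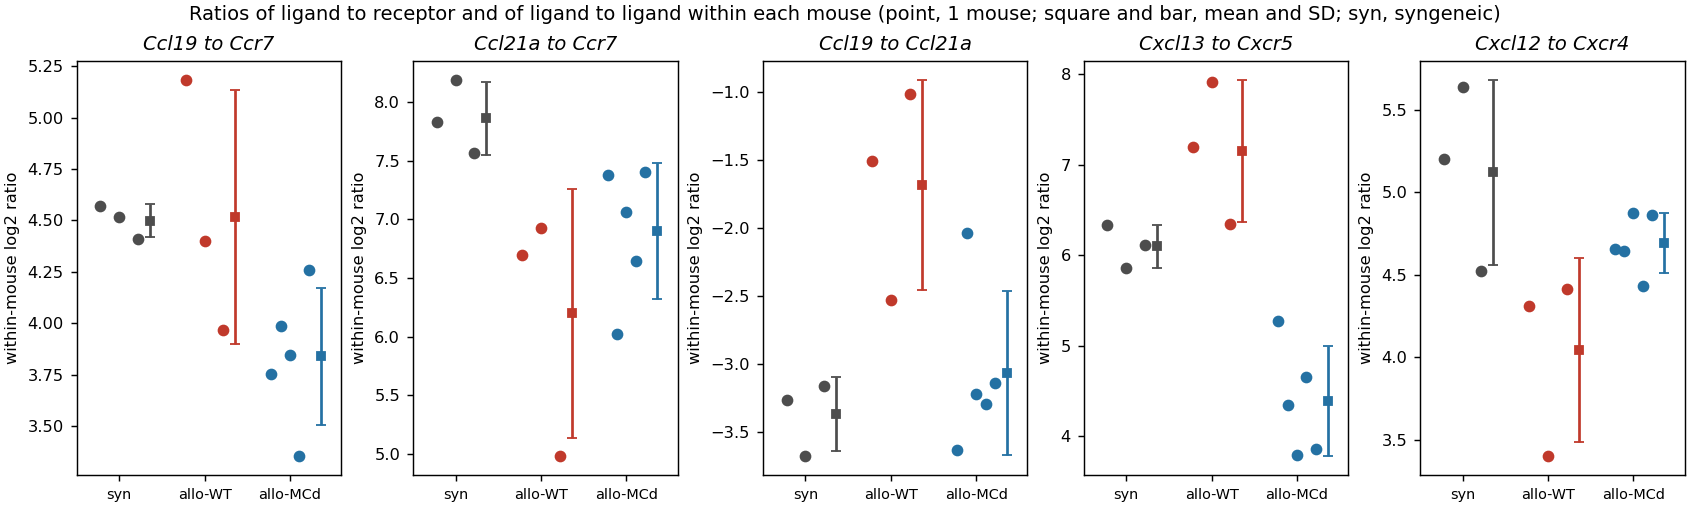
Within-mouse log2 ratios in the 3 groups, with 1 point per mouse and a square with a bar for the mean and SD. The Ccl19 to Ccl21a ratio is -2.53 to -1.01 in allo-WT mice against -3.67 to -3.16 in syngeneic mice, and the Cxcl13 to Cxcr5 ratio of syngeneic and allo-MCd mice is over a receptor value below background.

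The genes most like each member were taken as those with the smallest SD of the within-mouse log2 ratio over the 11 mice, among 696 other genes. The measure describes these mice, which share their groups and their scale. Closest to Cxcl13 were Icos, a costimulatory receptor of activated and follicular helper T-cells (SD 0.42), Ctss, a protease of antigen-presenting cells (0.42), and Adam8 (0.52), where the median gene had 1.52. Icos averaged 182 ± 28.9 (SD, n = 3) in the syngeneic group, 692 ± 189 (SD, n = 3) in the allo-WT group and 63.2 ± 12.3 (SD, n = 5) in the allo-MCd group. Ccl19 was closest to Csf1r, the receptor that macrophages need (0.28), Laptm5 (0.29) and the complement gene C4a (0.30), with a median over genes of 0.94. Csf1r averaged 3224 ± 855 (SD, n = 3), 4629 ± 1089 (SD, n = 3) and 1107 ± 368 (SD, n = 5) in the same order of groups.
Closest to Ccl21a were Tgfbr3 (0.38), Il3ra (0.41) and Serpinb6a (0.43), with a median of 0.91. Ccl19 stood at place 319 of 696 in that list. Ccr7 was closest to Grn (0.30), C4a (0.33) and Sirpa (0.33), with Ccl19 at place 46. For Cxcr5 they were Runx2 (0.34), Ctsd (0.34) and Mif (0.35), but with 8 of its 11 values below background this order is one of background readings in most mice. For Cxcl12 they were Lrp6 (0.28), Ctnnb1 (0.29) and Pbx3 (0.30). No member was among the 3 genes closest to another member.

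A wider list of 59 genes of lymphoid tissue organization, of which 34 were on the panel and 32 were tested, is given by its counts. From syngeneic to allo-WT skin 14 were called higher and 2 lower, where 28.1% and 14.9% of all genes were, with a median difference of 0.59. In allo-MCd against allo-WT skin 1 was called higher and 23 lower (11.3% and 50.4% of all genes), with a median of -1.15. In allo-MCd against syngeneic skin 0 were called higher and 13 lower (4.73% and 37.0% of all genes), with a median of -0.68. The last count is near the share of all genes. Under median scaling these counts were 13 and 6, 5 and 14, and 2 and 5, with medians of 0.34, -0.33 and -0.11, where all genes had the shares under that scaling given above for the members. The sublists below were not tested against each other, and their counts are to be read against these same shares. Gpr183, an oxysterol receptor that guides B-cells, had the largest called difference of the list in allo-MCd against syngeneic skin (-1.65 as deposited and -1.08 under median scaling). The count of 13 was 8 without mouse 1 or mouse 3 of the syngeneic group, and at the most 19 with another mouse left out. Without mouse 2 of the syngeneic group, 4 were lower in allo-WT skin than in syngeneic skin.

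Of 9 homing and adhesion genes tested, 6 were called higher and 0 lower from syngeneic to allo-WT skin, and 0 higher and 8 lower in allo-MCd against allo-WT skin, where 28.1% and 50.4% of all genes were called in those directions, with medians of 1.16 and -2.53. Under median scaling 6 were called higher in the first comparison and 6 lower in the second. Vcam1, an adhesion molecule of activated endothelium and follicular stroma, was 5.38-fold higher in allo-WT skin than in syngeneic skin (adjusted p = 0.000603) and 8.66-fold lower in allo-MCd skin than in allo-WT skin (adjusted p = 1.24e-05). The integrin genes Itgal, Itgb2, Itga4 and Itgb7 were called in the same directions, also under median scaling.

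Of 7 genes of B-cell help and survival tested, 4 were called higher and 1 lower from syngeneic to allo-WT skin, and in allo-MCd against allo-WT skin 1 higher and 4 lower, the 4 near the 50.4% of all genes. Under median scaling these counts were 4 and 2, and 2 and 4. Il21r, a receptor chain for interleukin 21, was 35.4 ± 4.92 (SD, n = 3), 286 ± 64.9 (SD, n = 3) and 33.2 ± 19.8 (SD, n = 5) in syngeneic, allo-WT and allo-MCd skin. Il6, Icos and Cd40 were called in the same directions as Il21r in both comparisons. Bcl6, the transcription factor of germinal center B-cells that many other cells also make, went the other way. It was 637 ± 67.7 (SD, n = 3), 296 ± 63.7 (SD, n = 3) and 472 ± 129 (SD, n = 5), and was called lower from syngeneic to allo-WT skin (adjusted p = 0.00618) and higher in allo-MCd skin than in allo-WT skin (adjusted p = 0.034). The latter call was lost when mouse 1 or 2 of the allo-WT group or mouse 3 or 5 of the allo-MCd group was left out, when no gene of the list was called higher.

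Of 9 lymphotoxin and NF-kB genes tested, 2 were called higher from syngeneic to allo-WT skin and 7 lower in allo-MCd against allo-WT skin, against 28.1% and 50.4% of all genes. Under median scaling 1 was higher and 2 lower in the first comparison, and 1 higher and 4 lower in the second. Ltb, a subunit of the lymphotoxin that induces Cxcl13 and Ccl19 in lymphoid stroma, was 67.4 ± 9.74 (SD, n = 3), 191 ± 29.1 (SD, n = 3) and 53.7 ± 15.9 (SD, n = 5). It was 2.84-fold higher in allo-WT skin than in syngeneic skin (adjusted p = 0.00282) and 3.56-fold lower in allo-MCd skin than in allo-WT skin (adjusted p = 0.000126). Lta, the partner subunit, was too low to be tested and above background in 1 of 3 syngeneic, 1 of 3 allo-WT and 0 of 5 allo-MCd mice. Among 5 other chemotactic genes, 2 were called higher and 1 lower from syngeneic to allo-WT skin, and 3 lower in allo-MCd against allo-WT skin, where 50.4% of all genes were. Under median scaling 0 were lower there and 1, Ccr6, was higher. Ccl20 and Cxcr4 were called higher in allo-WT skin than in syngeneic skin and lower in allo-MCd skin than in allo-WT skin, and the latter calls were lost under median scaling. Ccr6, the receptor for CCL20, was 65.8 to 80.1 in syngeneic, 10.1 to 38.3 in allo-WT and 17.6 to 57.6 in allo-MCd mice, and was called lower in allo-WT skin than in syngeneic skin (adjusted p = 0.00789). It was above background in 1 of 3 allo-WT mice, so the size of its differences from that group is not given, and its call under median scaling rests on the same values. Of 2 genes of lymphoid tissue inducer cells tested, Il23a was called lower in allo-MCd skin in both comparisons and Id2 was not called. Il23a was above background in 0 of 5 allo-MCd mice and lost both calls under median scaling (-0.33, adjusted p = 0.248, and -0.25, adjusted p = 0.476). Under that scaling Id2 was called higher in allo-MCd against allo-WT skin (0.42, adjusted p = 0.049).

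**Figure D4:**
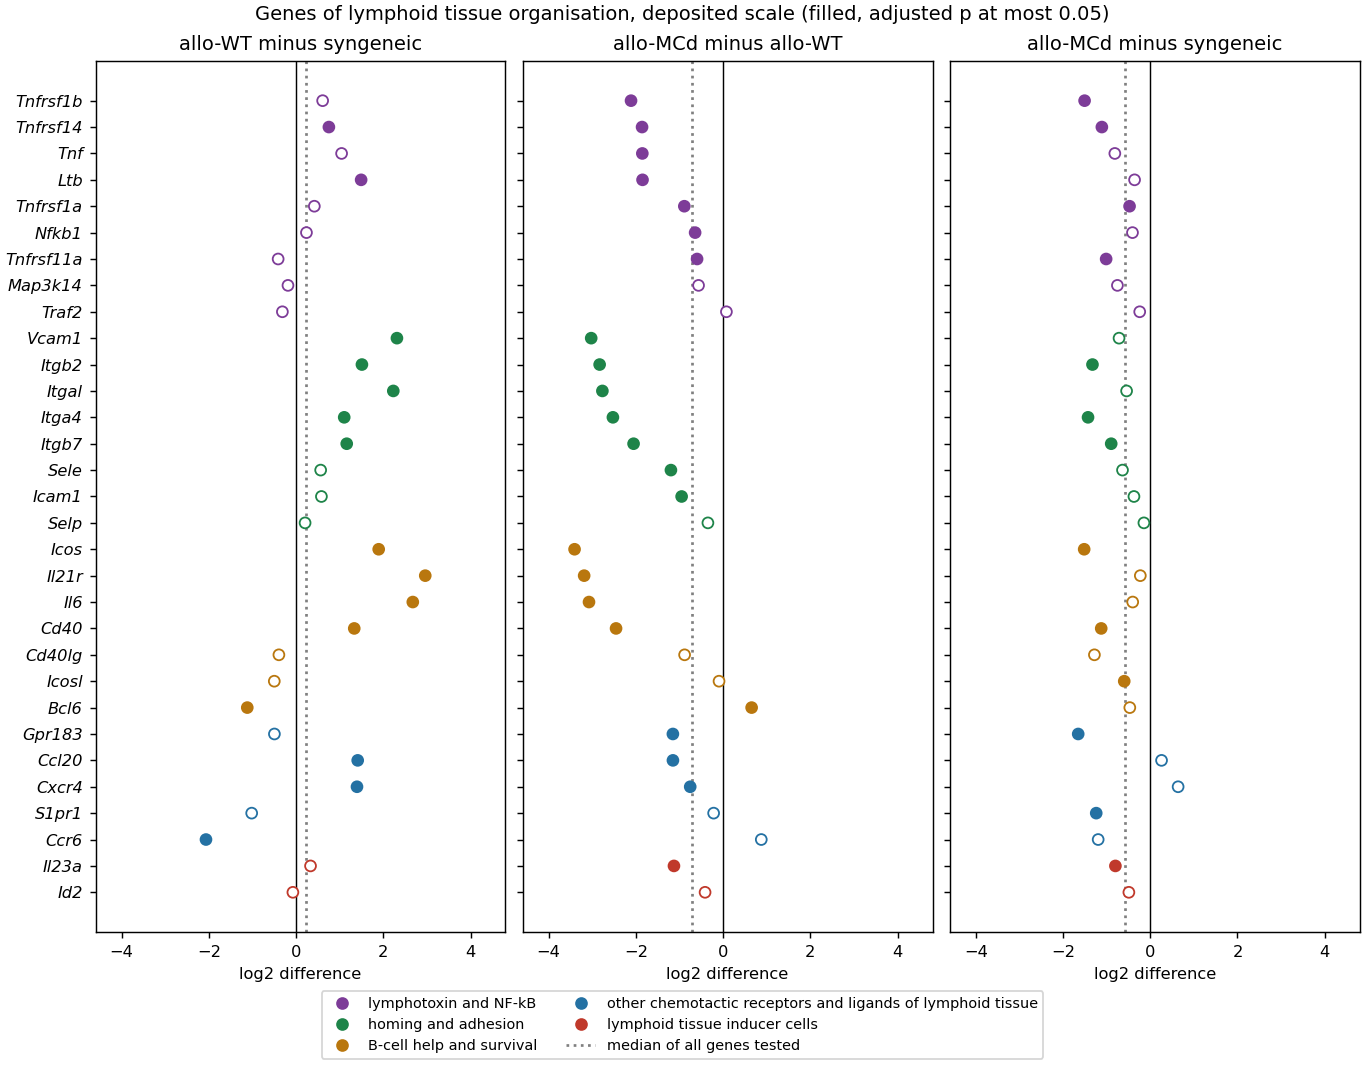
Log2 differences on the deposited scale for 31 of the 32 genes of lymphoid tissue organization tested, colored by sublist and filled where the adjusted p was at most 0.05, with a dotted line at the median of all genes tested. Of those drawn, Il21r, Il6 and Vcam1 lie farthest from 0 to the right for allo-WT minus syngeneic mice and, with Icos, to the left for allo-MCd minus allo-WT mice, while Bcl6 and Ccr6 lie on the opposite side.

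Markers of the cells that make or answer to these chemokines moved as follows, and their part in the results above was not tested. For B-cells only 2 of 11 listed markers were on the panel. Fcer2a was above background in no mouse, and Ms4a1, which encodes CD20, in 2 of 3 allo-WT mice and in none of the other groups. The sum of both was 28.7 to 57.5 in allo-WT mice, 13.2 to 25.4 in syngeneic mice and 9.3 to 18.4 in allo-MCd mice. In syngeneic and allo-MCd mice these are sums of readings below background, so no difference between groups is read from them. For T-cells only Cd28 of 12 markers was on the panel. It was 79.8 ± 18.6 (SD, n = 3) in the syngeneic group, 175 ± 21.9 (SD, n = 3) in the allo-WT group and 33.9 ± 4.33 (SD, n = 5) in the allo-MCd group, and was called in all 3 comparisons as deposited, though not between allo-MCd and syngeneic skin under median scaling.

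Of 10 mature dendritic cell markers on the panel, 3 were called higher and 1 lower from syngeneic to allo-WT skin, and 7 lower in allo-MCd against allo-WT skin, where 28.1%, 14.9% and 50.4% of all genes were. The first 2 counts are near those shares. Under median scaling the counts were 3 higher and 3 lower (Cd83, Flt3 and Ccl22), and 5 lower, where 24.2%, 27.4% and 30.4% of all genes were. In allo-MCd against syngeneic skin 8 were called lower (37.0% of all genes), and under median scaling 1 higher and 4 lower (13.8% and 13.8%). Cd83, which marks the migrating cells that carry CCR7, was called lower in allo-WT skin than in syngeneic skin (adjusted p = 0.0474), but the groups overlapped, at 226 to 640 and 365 to 1422 (exact permutation p = 0.2). Fscn1 was 2.34-fold higher in allo-WT skin, without overlap (adjusted p = 0.00989). The sum over the 10 markers was 2029 to 3492 in syngeneic, 3096 to 3970 in allo-WT and 1290 to 1689 in allo-MCd mice. Of 7 macrophage markers, 3 were called higher from syngeneic to allo-WT skin and 7 lower in allo-MCd against allo-WT skin (28.1% and 50.4% of all genes). Under median scaling these counts were 3 and 6 (24.2% and 30.4%). In allo-MCd against syngeneic skin 6 were called lower (37.0% of all genes), and 4 under median scaling (13.8%). Their sums were 13046 to 16131, 21667 to 37958 and 4255 to 8043 in syngeneic, allo-WT and allo-MCd mice.

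Of the endothelial markers, Tek and Cdh5, 2 of 3 on the panel from a list of 12, were called lower from syngeneic to allo-WT skin, by 3.08-fold (adjusted p = 0.0049) and 2.68-fold (adjusted p = 0.0119), and the sum over the list was 1112 to 1727 in syngeneic, 522 to 613 in allo-WT and 455 to 1110 in allo-MCd mice. The share of all genes called lower there was 14.9%, and the third marker, Flt1, differed by -0.14 (adjusted p = 0.758). In allo-MCd against allo-WT skin none of the 3 was called as deposited, while under median scaling Cdh5 and Tek were called higher (1.48 and 1.17), where 35.7% of all genes were. In allo-MCd against syngeneic skin only Tek was called lower (-1.28, adjusted p = 0.00997), where 37.0% of all genes were. That call was lost under median scaling (-0.70, adjusted p = 0.0886). The markers that define lymphatic vessels, such as Lyve1 and Prox1, were not among the 3. Of 5 fibroblast and stromal markers, 1 was called lower from syngeneic to allo-WT skin and 1 lower in allo-MCd against allo-WT skin (14.9% and 50.4% of all genes), with sums of 89814 to 189770, 12951 to 135370 and 36983 to 86742. These counts depend on the scale, since under median scaling they were 3 and 0 (27.4% and 30.4% of all genes). In allo-MCd against syngeneic skin 3 stromal markers were called lower as deposited (37.0% of all genes) and 0 under median scaling (13.8%). No keratinocyte marker of 7 was on the panel, so the label of skin could not be checked with those genes. All 7 mast cell markers on the panel were called lower in allo-MCd skin than in either other group, where 50.4% (against allo-WT) and 37.0% (against syngeneic) of all genes were, with sums of 139 to 656 in allo-MCd, 2397 to 14803 in allo-WT and 3851 to 9348 in syngeneic mice. Under median scaling 6 of the 7 were called lower in each of these comparisons, where 30.4% and 13.8% of all genes were. Kit and Ms4a2 were above background in no allo-MCd mouse. They passed the filter through the groups in which they were high, so their calls cannot be read against those shares. Kit is also the gene of the W-sh allele.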

How the data were processed

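RNA from whole skin of 11 mice, 100 ng from each, was counted with the NanoString Myeloid Innate Immunity panel. The authors normalized these counts in nSolver and deposited them as a linear signal. Which version, which housekeeping genes and whether background was subtracted is not given in the sources used here, and the labels name Trizol where the methods name Ribozol. The 768 entries held 754 genes and 14 control probes with raw counts. Whole counts were recovered from 1 factor per mouse (0.759 to 2.54), with 99.9% to 100% of values within 0.011 of a multiple. Counting error limits the precision of the lowest genes, and its share of their spread was not tested.

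After removal of 19 housekeeping candidates, 697 of 735 genes reached a value of 20 in 3 or more mice and were tested. The test was limma 3.58.1 (R 4.3.3), tested on simulated data, with an intensity trend, all 3 groups in 1 fit and Benjamini-Hochberg adjustment. Exact two-sided permutation tests used 56 or 20 arrangements. Fold changes are ratios of group means, and log2 values with the added 1 understate the change of low genes. Python 3.11.15 with pandas 2.3.3 and matplotlib 3.10.9 did the rest. All 6 members matched RefSeq symbols.

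The members, lists and tests were chosen with earlier results of these data known. Names were drawn from the members, in each comparison up to 10 called genes of the lymphoid list and 3 of each marker list with the largest difference, and the 3 genes most like each member, except 1 gene of the lymphoid list that is counted but not reported here; not all genes of that rule are named. Sums, Lta, Fcer2a, Ms4a1 and other genes named beside a count were given after their values were seen. Alternatives were other pseudocounts, filters, scalings and fits, each mouse left out in turn, and the methods' 3-group test with Tukey's comparison. The mice are separate animals, and no label ties them to a batch.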

Additional observations from a re-analysis of the deposited data

Results flagged for a closer look

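In 50 tests, 1 for each named gene or ratio in the 5 allo-MCd mice, 3 had 1 mouse far from the other 4 on the scale of log2(value + 1), where about 1 in 20 is flagged by chance. For Ccr7, mouse 1 measured 15.19, against 27.89 to 33.38 in the others, a gap of 0.769 of the group's range on that log2 scale and of 0.698 on the linear scale, the latter below the limit of 0.71. For Icos, the gene most like Cxcl13, mouse 5 measured 85.18 against 55.43 to 58.88, a gap of 0.860 on the log2 scale and 0.884 on the linear scale. For the dendritic cell gene Cd83, mouse 5 measured 334.98 against 165.01 to 198.35, a gap of 0.740 on the log2 scale and 0.804 on the linear scale. Mouse 1 had the smallest normalization factor of the 11 mice, 0.759, and mouse 5 the largest of its group, 1.15, and their part in these values was not tested.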

How the results depend on the processing

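Scaling moved more results than any other choice. Under median scaling Ccl21a and Cxcl12 turned sign in allo-MCd minus allo-WT mice, to 0.26 and 0.73, and under quantile normalization to 0.27 and 0.78. Quantile normalization also turned Cxcr5 in that comparison, to 0.040, and Cxcl12 in allo-WT minus syngeneic mice, to -0.047. Calls lost under median scaling and quantile normalization were Ccr7 in allo-MCd minus allo-WT mice (-0.46 and -0.28), and Ccl19 (-0.77 and -0.78) and Cxcl13 (-0.77 and -0.83) in allo-MCd minus syngeneic mice, and Cxcr5 lost its call in allo-MCd minus allo-WT mice under median scaling (-0.18). Calls gained in allo-MCd minus syngeneic mice were Cxcr5 (0.91 and 0.99) and Cxcl12 (0.79 and 0.73), though all Cxcr5 values of both groups were below background and have no order. Members called were then 1 higher and 2 lower in allo-MCd against allo-WT skin, and 2 higher and 1 lower in allo-MCd against syngeneic skin, under both. Lymphoid list genes were 6 and 7 lower from syngeneic to allo-WT skin, 5 and 5 higher and 14 and 13 lower in allo-MCd against allo-WT skin, and 2 and 2 higher and 5 and 4 lower in allo-MCd against syngeneic skin.

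The methods' test with Benjamini-Hochberg adjustment lost Ccl21a in allo-WT minus syngeneic (-1.08), Ccr7 in allo-MCd minus allo-WT (-1.28), and Ccl19 and Cxcl13 in allo-MCd minus syngeneic mice (-1.35 and -1.35), leaving 0 and 1 members called lower in the first and last, and 3 lymphoid genes lower in the last. Fitting only the groups compared lost Ccl21a (-1.08), leaving 0 members lower in allo-WT skin. With either of these tests, and with voom on recovered counts, which was added after seeing the data, 0 lymphoid genes were higher in allo-MCd skin against allo-WT skin. At a filter of at least 50, Cxcr5 was not tested, so 1 member was higher in allo-WT skin than in syngeneic skin. With a pseudocount of 20, the ratio of Ccl19 to Ccr7 differed by -1.01 between allo-MCd and allo-WT mice (exact permutation p = 0.0357). The planned edgeR fit was not run.

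Mouse numbers were not taken to pair the samples. Of 9 same-number pairs 3 correlated over 0.1 (r -0.112 to 0.211). Pairs of unlike number were not compared, so this cannot show whether same-number mice shared a batch. With the number as a block, Ccl21a in allo-WT minus syngeneic mice (-1.08, 0 members lower) and Cxcr5 in allo-MCd minus allo-WT mice (-1.06) lost their calls, and no other member did.

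Leaving out 1 mouse at a time moved the differences of Ccl19 and Ccr7 between -1.68 and -1.06 (allo-MCd minus syngeneic) and between -1.54 and -0.96 (allo-MCd minus allo-WT). Ccl21a lay between -1.39 and -0.78 (allo-WT minus syngeneic), Cxcr5 between -1.09 and -0.81 and Cxcl12 between -0.39 and 0.071, the latter without mouse 1 of the allo-WT group (allo-MCd minus allo-WT). Members lower in allo-WT skin than in syngeneic skin numbered 0 to 1. Lymphoid genes numbered 2 to 4 lower in allo-WT skin than in syngeneic skin, 0 to 2 higher in allo-MCd against allo-WT skin, and 0 to 1 higher and 8 to 19 lower in allo-MCd against syngeneic skin. Ratios of Ccl19 to Ccr7 differed by -0.32 to 0.29 (allo-WT minus syngeneic, below 0 at -0.32 without mouse 1 of the allo-WT group and -0.027 without mouse 3 of the syngeneic group), -0.95 to -0.34 (allo-MCd minus allo-WT) and -0.76 to -0.54 (allo-MCd minus syngeneic). The ratio of Ccl21a to Ccr7 lay between -1.11 and -0.74 and that of Cxcl13 to Cxcr5 between -1.94 and -1.57 in allo-MCd minus syngeneic mice, and that of Ccl19 to Ccl21a between -1.80 and -1.04 in allo-MCd minus allo-WT mice. The ratio of Cxcl12 to Cxcr4 differed by 0.33 to 0.84 (allo-MCd minus allo-WT) and by -0.73 to -0.17 (allo-MCd minus syngeneic). Over the alternatives other than leaving out a mouse, 189 of the members' differences kept their direction and their side of the threshold, 14 lost a call, 4 gained one and 6 turned sign, and the cause was not tested. Depth limits Ccr7 and Cxcr5, at 18 to 81 and 8 to 23 recovered counts. Each Cxcr5 difference and each ratio to Cxcr5 above involves readings below background.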
